A study of Mus musculus with 2 samples.

Results

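The neuropeptide precursor genes described here are 10 genes taken by name, namely Sst, Npy, Vip, Cck, Penk, Pdyn, Pomc, Tac1, Trh and Crh, out of 21755 protein-coding genes on the autosomes and the X chromosome. All 10 were found once in the annotation. They were read in chromatin immunoprecipitation and sequencing of trimethylated lysine 27 of histone H3 (H3K27me3) in E14TG2a.4. This line of embryonic stem cells came from a male mouse embryo of strain 129/Ola, for which the labels give an age of 3.5 days. There were 2 samples, labelled as biological replicates 1 and 2 and as sharing a donor, so their spread is that within 1 line. The labels name no treatment or genetic change, and no control sample was analysed here. With a single group, the question is where the mark lies at these genes and whether the replicates give the same answer.

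Neuropeptides are cut from larger precursor proteins in the secretory pathway of neurons and endocrine cells, and each precursor gene is used by restricted cell types. Pluripotent stem cells of the early embryo precede all of these cell types. H3K27me3 is laid down by Polycomb repressive complex 2, mostly around CpG-rich starts of genes that are not in use, and is removed or kept as lineages form.

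Of the 10 precursor genes, 8 carried H3K27me3 at the start in both replicates and 2, Vip and Trh, had no peak there in either. A gene was called marked when a peak overlapped the 1 kb on each side of its annotated 5' end (2001 bp, build mm10) by at least 1 bp in both replicates. Over all protein-coding genes 26.1% were marked by this rule, and 80.0% of the precursors were. The same 8 had peaks within 5 kb of the start and over the gene body, where 33.9% and 33.8% of all protein-coding genes did. For these 8 that follows from their covered starts, described next, and adds nothing new. No precursor gene had a peak within 1 kb in a single replicate. Over all protein-coding genes 27.8% had such a peak in replicate 1, 30.2% in replicate 2 and 68.0% in neither.

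At the 8 marked genes the peaks lay over the start itself. The base at which the gene begins was covered in both replicates at 8 of 8, against 9.59% of all protein-coding genes and 36.7% of all marked ones. At least 50% of the 2001 bp window was covered in each replicate at all 8, a rule that 14.0% of all protein-coding genes met. The marked precursors had a median of 1938.5 bp covered in replicate 1 and 1862.5 bp in replicate 2, where all 5679 marked promoters had medians of 1251 bp and 1200 bp. All 8 lay above both of those medians. These are counts and medians without a test, since the genes were chosen with results of these data known.

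**Figure D1:**
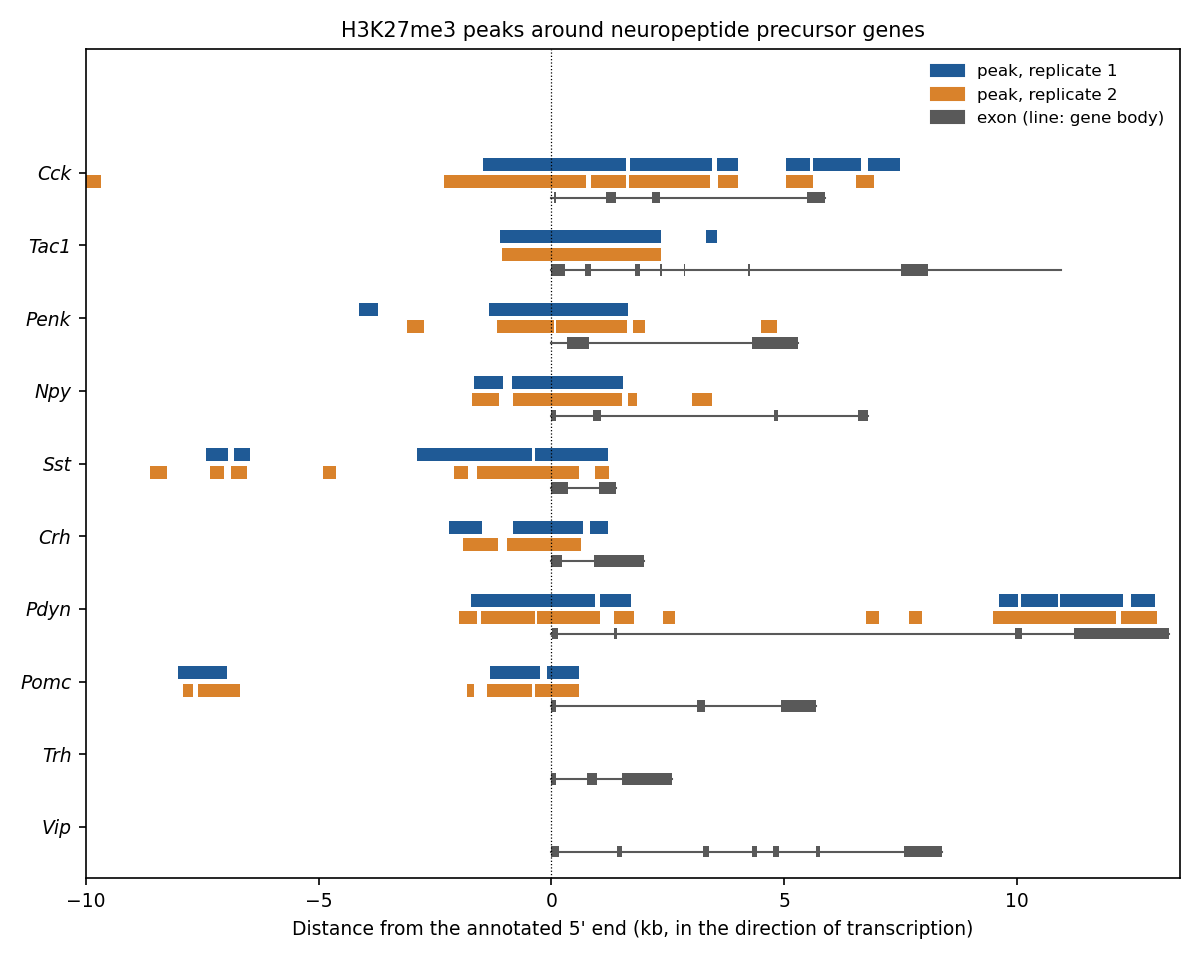
Peaks of replicate 1 (blue) and replicate 2 (orange) around each precursor gene, as distance in kb from the annotated 5' end in the direction of transcription. Grey lines are gene bodies and grey boxes exons. Peaks of both replicates lie over the start of 8 genes, and Trh and Vip have none within 10 kb.

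The sequences just before the RefSeq starts show how unlike these promoters are. Given here, 5' to 3' on the strand of the gene, are the 250 bases before the RefSeq start (GRCm38.p6) of 4 marked genes and of the 2 without a peak, with every CpG dinucleotide in capitals. The RefSeq start was the annotated 5' end used for the peaks at Npy, Cck, Trh and Vip. It lay 182 bp downstream of that end at Tac1 and 114 bp downstream at Sst, so part of those windows lies inside the annotated gene. The windows are chr6:49822460-49822709 (plus strand) for Npy, chr6:7554811-7555060 (plus) for Tac1, chr16:23890845-23891094 (minus) for Sst, chr9:121495695-121495944 (minus) for Cck, chr6:92244651-92244900 (minus) for Trh and chr10:5638968-5639217 (plus) for Vip.
Npy: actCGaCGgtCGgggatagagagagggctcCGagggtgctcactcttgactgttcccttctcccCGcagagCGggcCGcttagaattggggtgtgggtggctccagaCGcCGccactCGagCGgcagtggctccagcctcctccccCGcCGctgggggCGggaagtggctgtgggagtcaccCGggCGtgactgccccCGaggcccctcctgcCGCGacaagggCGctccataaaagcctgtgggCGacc
Tac1: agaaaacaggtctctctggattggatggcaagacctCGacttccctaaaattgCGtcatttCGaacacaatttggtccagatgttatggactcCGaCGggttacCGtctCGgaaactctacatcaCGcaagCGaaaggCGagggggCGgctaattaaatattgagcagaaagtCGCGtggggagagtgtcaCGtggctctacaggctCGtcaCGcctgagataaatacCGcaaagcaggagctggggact
Sst: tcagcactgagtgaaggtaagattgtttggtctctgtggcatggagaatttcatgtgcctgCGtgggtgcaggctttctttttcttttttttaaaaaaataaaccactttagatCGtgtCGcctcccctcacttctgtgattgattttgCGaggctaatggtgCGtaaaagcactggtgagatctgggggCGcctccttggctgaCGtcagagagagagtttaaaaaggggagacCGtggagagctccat
Cck: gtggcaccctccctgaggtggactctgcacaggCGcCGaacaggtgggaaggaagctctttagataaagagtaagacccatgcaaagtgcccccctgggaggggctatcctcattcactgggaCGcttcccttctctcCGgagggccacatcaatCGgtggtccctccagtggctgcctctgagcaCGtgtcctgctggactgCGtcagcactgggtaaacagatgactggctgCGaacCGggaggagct
Trh: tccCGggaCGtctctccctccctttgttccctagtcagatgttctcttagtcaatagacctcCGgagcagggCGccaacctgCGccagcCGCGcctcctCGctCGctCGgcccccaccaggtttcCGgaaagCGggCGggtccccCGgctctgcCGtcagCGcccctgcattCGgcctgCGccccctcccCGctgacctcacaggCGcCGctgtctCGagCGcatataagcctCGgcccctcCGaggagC
Vip: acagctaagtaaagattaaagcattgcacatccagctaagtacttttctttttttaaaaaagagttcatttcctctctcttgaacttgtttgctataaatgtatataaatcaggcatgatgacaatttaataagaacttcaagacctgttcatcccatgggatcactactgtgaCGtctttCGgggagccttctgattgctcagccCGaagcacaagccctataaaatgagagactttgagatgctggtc
The promoter table held 8 of the 10 genes, not Penk or Crh. With the 50 bases after the start added, these windows hold 24 CpG at Npy, 22 at Tac1, 13 at Sst, 10 at Cck, 28 at Trh and 4 at Vip, and the median of 32851 promoters in the table is 7. The promoter with the most CpG of the 6, Trh, and the one with the fewest, Vip, are thus the 2 that had no peak.

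The 3 precursors of opioid peptides, Penk, Pdyn and Pomc, were all marked. Penk encodes proenkephalin, the source of the enkephalins (chr4:4133531-4138819, minus strand). A single peak of replicate 1 ran from -1352 to +1652 bp of its start, and replicate 2 split the same stretch into peaks from -1168 to +48 bp and from +102 to +1631 bp. The window within 1 kb was covered over 2001 bp in replicate 1 and 1948 bp in replicate 2. The highest signal values, given by the authors for each peak on a scale that is not stated, were 10.96 and 9.54. They were above 96.4% and 95.7% of the peaks in the list of each replicate. Exon 1 of Penk lay wholly inside the mark in both replicates. Exon 2, with most of the coding sequence, had 343 bp covered in replicate 2 and 0 bp in replicate 1.

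Pdyn encodes prodynorphin, the source of the dynorphins (chr2:129686565-129699844, minus strand), and had the mark at both ends of its gene body. At the start, 1939 bp of the window were covered in replicate 1 and 1953 bp in replicate 2, with modest signal values of 5.48 and 6.65. A separate domain, made of bases covered in both replicates and joined across gaps of up to 3 kb, ran from +9626 to +12978 bp (chr2:129686866-129690218) over the far end of the gene. It took in 95 of the 149 bp of exon 3 and 1475 of the 2051 bp of exon 4, which together hold the coding sequence. In all 92.7% of the coding bases of Pdyn were covered in both replicates. Exons 1 and 2, which are not coding, were covered in full at the start. In the long intron between exons 2 and 3, replicate 2 had small peaks beginning at +2401, +6764 and +7683 bp where replicate 1 had none.

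Pomc encodes pro-opiomelanocortin, the source of corticotropin, the melanocortins and beta-endorphin (chr12:3954951-3960642, plus strand), and had the narrowest mark of the 8. Its window was covered over 1454 bp in replicate 1 and 1527 bp in replicate 2, with signal values of 6.30 and 5.78. Coverage ended at +589 bp in replicate 1 and at +593 bp in replicate 2. Exon 1, which is not coding, was covered, and none of the 705 coding bases in exons 2 and 3 was. A second domain lay upstream of Pomc, from -7912 to -6979 bp.

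Tac1 encodes the precursor of substance P and neurokinin A (chr6:7554879-7565834, plus strand), and its replicates matched most closely. The peak over the start ran from -1098 to +2362 bp in replicate 1 and from -1059 to +2346 bp in replicate 2. All 2001 bp of the window were covered in both. Within 5 kb of the start, 91.8% of the bases covered in either replicate were covered in both, the highest share of the 8, whose lowest was 60.3% at Crh. The signal values of Tac1, 11.8 in replicate 1 and 8.90 in replicate 2, were nevertheless the furthest apart of the 8. Exons 1 to 3 lay inside the mark, and exons 5 to 7 had no covered base.

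Among the peptides of cortical interneurons and the gut, Sst, Npy and Cck were marked and Vip was not. Cck, the gene of cholecystokinin (chr9:121489824-121495694, minus strand), had the broadest mark of the 10. Within 5 kb of its start 5307 bp were covered in replicate 1 and 5967 bp in replicate 2, and peaks went on past the end of the gene, to +7498 and +6924 bp. All 402 coding bases of Cck were covered in both replicates. Its signal values were 10.4 and 9.25 at the start and 3.27 and 3.18 in the peaks furthest downstream.

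Npy, the gene of neuropeptide Y (chr6:49822710-49829507, plus strand), had a compact mark. A peak ran from -840 to +1540 bp in replicate 1 and from -831 to +1515 bp in replicate 2, with signal values of 10.1 and 9.54. A smaller peak lay just upstream, from -1669 to -1042 bp and from -1709 to -1118 bp. Exons 1 and 2 were covered in full and exons 3 and 4 not at all, so that 64.6% of the coding bases lay in the mark.

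Sst, the gene of somatostatin (chr16:23889573-23890958, minus strand), is the shortest of the 10 at 1386 bp and was mostly covered. Peaks took in 87.1% of its body in replicate 1 and 65.3% in replicate 2, and 94.3% of its coding bases in both. The window was covered over 1938 bp and 1665 bp, with signal values of 6.95 and 7.29. The mark extended upstream to -2884 bp in replicate 1 and to -2090 bp in replicate 2. A further domain lay upstream of Sst, from -7331 to -6531 bp.

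Vip, the gene of vasoactive intestinal peptide (chr10:5639218-5647617, plus strand), had 0 bp covered within 10 kb of the start and over its body in both replicates. The nearest peak was 88830 bp upstream in replicate 1 and 89006 bp upstream in replicate 2. Of all protein-coding genes 51.2% were without a peak within 10 kb in both replicates, so an empty surrounding of this size is common. The longer peak lists of another processing run, here called relaxed, gave Vip no peak within 1 kb, but in replicate 2 a peak 9538 bp upstream, with a signal value of 3.33 and a −log10 q of 2.77.

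Of the 2 hypothalamic releasing hormones, Crh was marked and Trh was not. Crh encodes corticotropin-releasing hormone, which drives the stress axis (chr3:19693401-19695396, minus strand). Its window was covered over 1680 bp in replicate 1 and 1608 bp in replicate 2, with signal values of 6.63 and 6.77. The peak at the start ran from -823 to +680 bp and from -964 to +643 bp. The coding sequence, all in exon 2, had 295 bp covered in replicate 1 and 0 bp in replicate 2, so the replicates did not give the same answer there.

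Trh encodes the precursor of thyrotropin-releasing hormone (chr6:92242061-92244650, minus strand). It had 0 bp covered within 10 kb of the start in both replicates, and its nearest peaks were 131515 bp away in replicate 1 and 18278 bp away in replicate 2. Trh was the one gene whose call changed with the list. In the relaxed lists a peak of replicate 1 covered 213 bp of the window and one of replicate 2 covered 156 bp. They lay 473 bp and 340 bp downstream of the start, with signal values of 3.62 and 2.67 and a −log10 q of 3.65 and 1.65. By the relaxed lists 9 of the 10 genes were marked, against 33.3% of all protein-coding genes. The relaxed peaks at Trh spanned far fewer bases than those lists gave the other 8 genes, where the lowest value was 1441 bp at Pomc in replicate 1.

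By signal value the 8 marked genes fell on both sides of the typical marked promoter. Tac1, Penk, Npy and Cck exceeded the medians of all marked promoters in both replicates, which were 7.67 and 7.56. Sst, Crh, Pdyn and Pomc lay below both. The medians over the 8 genes were 8.55 and 8.10, within the middle 50% of marked promoters (5.48 to 10.4 and 5.49 to 10.1). The highest of the 8 in replicate 1, Tac1, exceeded 84.5% of marked promoters there and 61.9% in replicate 2. The lowest in replicate 1, Pdyn, exceeded 23.1% and 37.5%. The precursors thus stood above the medians of marked promoters in the bases covered at 8 of 8 genes and in signal value at 4 of 8. The order within each set of 4 changed between replicates, so neighbours in it cannot be ranked from 2 samples.

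**Figure D2:**
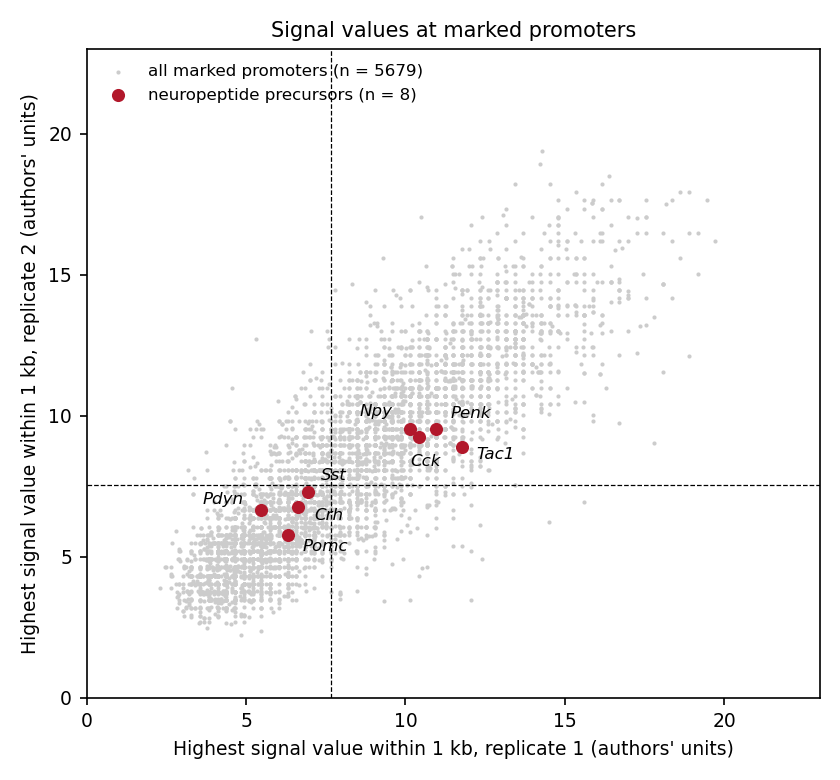
Highest signal value within 1 kb of the start in replicate 1 (x axis) and replicate 2 (y axis), in the authors' units, for all 5679 marked promoters (grey) and the 8 marked precursors (red). Dashed lines are the medians over all marked promoters. Tac1, Penk, Npy and Cck lie above both medians and Sst, Crh, Pdyn and Pomc below both.

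Each marked start lay in a domain. The domains ran from 1918 bp at Pomc to 8404 bp at Cck, with a median of 3241 bp over the 8 genes. The median over all protein-coding genes whose start was covered was 6453 bp. None of the 8 domains held the start of another protein-coding gene. The nearest such start to any of the 8 genes, Rtp2 near Sst, was 41436 bp away, further than the longest domain reached. The count thus goes with the spacing of the genes, and its share over all protein-coding genes was not computed. The domain lengths depended on the settings. From replicate 2 alone the domain at Sst grew from 3297 to 9875 bp, that at Penk from 2800 to 7960 bp and that at Npy from 3185 to 5156 bp, and from replicate 1 alone the one at Penk was 5789 bp. A domain from a single replicate holds the bases shared by both, so it could only be as long or longer. Joined within 5 kb the Sst domain was 8538 bp, and joined within 1 kb the Cck domain was 5485 bp.

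The nearest protein-coding starts on either side were 29725 to 654536 bp away. Of these 20 neighbours 8 were marked in both replicates and 11 lacked a peak within 1 kb. The remaining 1, Stk31 near Npy, had a peak in replicate 1 alone. By the same rule 26.1% of all protein-coding genes were marked, and 68.0% lacked such a peak in both replicates. Whether the neighbours differ from these shares was not tested. Penk, Tac1 and Crh were marked between neighbours without a peak (Sdr16c6 and Impad1, Sdhaf3 and Asns, Trim55 and Cp). Pomc and Cck lay between marked neighbours. Those of Pomc were Dnmt3a, a DNA methyltransferase, covered over 1359 and 1384 bp, and Efr3b. Those of Cck were Trak1 and Lyzl4, which starts beside the VIP receptor gene Vipr1. Vip lay between Myct1 and Fbxo5, which also had no peak. Sst, Pdyn and Trh each had a marked neighbour (Masp1, Sirpa and Prickle2) and one without a peak (Rtp2, Stk35 and Rbsn). The other neighbour of Npy, Mpp6, was marked.

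In CpG ratio, though not in the CpG counts given above, Trh lay among the marked genes, and the place of Vip depended on the window. The ratio of observed to expected CpG within 500 bp of the start was 0.796 at Penk, 0.626 at Npy, 0.607 at Tac1 and 0.577 at Sst. It was 0.506 at Pomc, 0.396 at Crh, 0.328 at Pdyn and 0.260 at Cck. Trh, at 0.557, and Vip, at 0.287, fell within this range. With 250 bp or 1 kb on each side of the start Vip, at 0.287 and 0.263, was the lowest of the 10 genes, below Cck at 0.329 and Pdyn at 0.297, the lowest marked ones. Trh, at 0.654 and 0.394, stayed within the range of the marked genes. When all promoters were split into 10 equal classes by this ratio, the share marked was highest in classes 5 and 6 from the bottom, at 45.3% and 42.2%, where Pomc, Trh, Sst, Npy and Tac1 lay. Cck was marked in class 3, where 15.2% of promoters were. Had the 10 genes been marked at the rates of their classes, 3.43 of them (34.3%) would have been, where 8 were.

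**Figure D3:**
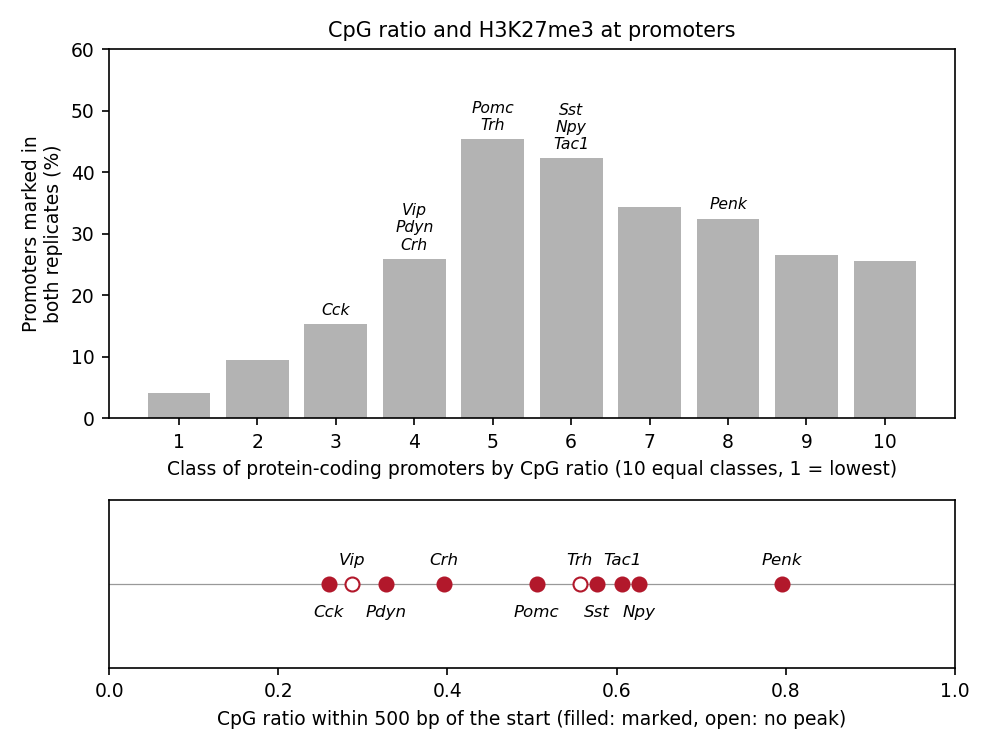
Top, share of protein-coding promoters marked in both replicates (%) in 10 equal classes by CpG ratio, with the precursors of each class named above its bar. Bottom, CpG ratio of each precursor, filled where marked and open where not: Trh (0.557) lies among the marked genes, and Vip (0.287) lies next to Cck (0.260) in this window but below every marked gene with 250 bp or 1 kb on each side.

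Around the 8 marked starts the covered bases were denser in CpG than the uncovered bases beside them. Within 5 kb of Npy there were 36.2 CpG per kb in bases covered in both replicates and 6.76 per kb in the rest. Tac1 had 29.9 and 5.0, and Penk 35.3 and 10.6. The gap was smallest at Pdyn, with 16.9 and 10.8, and at Crh, with 20.4 and 14.3. The 4 genes with the higher signal values (Npy, Penk, Tac1 and Cck) were also the 4 with the most CpG per kb in the covered bases, which over 8 genes is a description. The surroundings of Trh held 12.7 CpG per kb and those of Vip 7.80 per kb over all bases within 5 kb. Being over all bases, these densities cannot be set against those of the covered bases alone at the marked genes. CpG is in general densest at gene starts, and whether covered bases are CpG-dense beyond that was not tested.

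**Figure D4:**
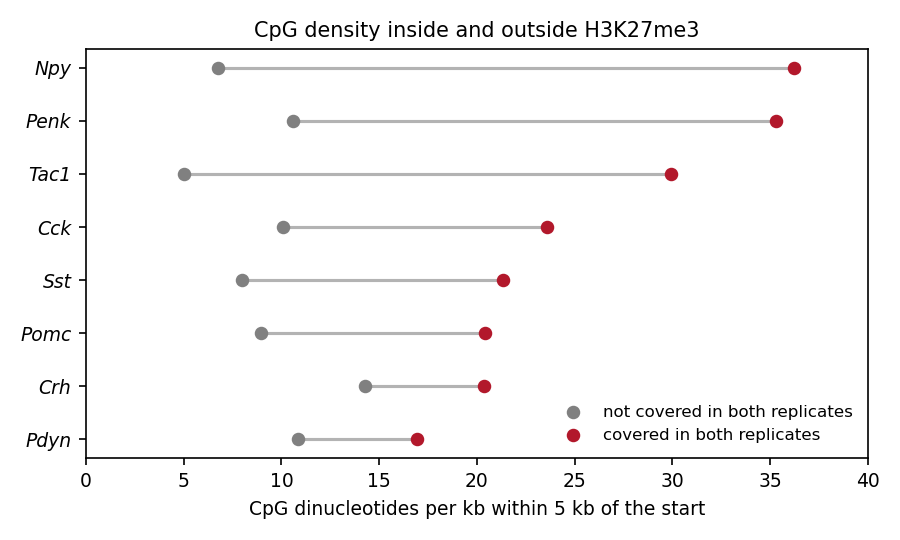
CpG dinucleotides per kb within 5 kb of the start, in bases covered by peaks of both replicates (red) and in the other bases (grey), for the 8 marked precursors. The covered bases have the higher density at each gene, from 16.9 per kb at Pdyn to 36.2 per kb at Npy.

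The cyclic AMP response element, the binding site of CREB known from the somatostatin promoter, was searched as TGACGTCA on both strands of the 300 bases. It was found at Sst, from -48 of the RefSeq start, and at none of the other 7 genes in the table, while 1.79% of all promoters held it. That start lies 114 bp downstream of the annotated 5' end used for the peaks, so the element falls inside exon 1 of Sst as annotated there. The shorter TGACG, which the longer form contains, was found on either strand at 5 of the 8 genes, Cck, Sst, Tac1, Trh and Vip, and in 20.8% of all promoters. Both unmarked genes held the short form and so did 3 marked ones. A match is a stretch of letters, not a bound site.

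For 6 of the marked precursors, the protein-coding gene most like it in covered bases was found over 20 bins of 500 bp within 5 kb in both replicates. Among these 6 the closest match was Tssk3 for Pomc, with a mean difference of 16.95 bp per bin, then Fgf15 for Pdyn with 26.4 bp. Dcdc2a was closest to Npy (29.15 bp), Trpm6 to Crh (33.95 bp), Majin to Sst (36.5 bp) and Drd4 to Cck (46.8 bp). Likeness here is of peak layout in 2 samples and of nothing else.

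Genes that act before and after the precursors were marked often too. Of 17 processing enzymes, granins and release factors 13 were marked (76.5%, against 26.1% of all protein-coding genes). Pcsk5, Pcsk2, Cadps2 and Cpe had the highest ranks. Pcsk2 encodes a convertase that cuts many of these precursors and had signal values of 9.73 and 10.1, and Cpe the carboxypeptidase that trims the products, with 8.49 and 8.39. Scg5, the chaperone of Pcsk2, was without a peak there, and Scg2, Scg3 and Pcsk1n had one in a single replicate. At the rates of their CpG classes 6.01 of the 17 would have been marked. With at least 50% of the window covered as the rule, 7 of 17 were marked (41.2%), against 14.0% of all protein-coding genes.

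Receptors for the peptides were marked at 22 of 29 genes (75.9%, with 26.1% of all protein-coding genes marked), where the rates of their CpG classes would give 8.51. Vipr1, Crhr1, Oprd1 and Sstr2 had the highest ranks, with signal values of 13.7 and 12.7 at Vipr1 and of 12.4 and 13.0 at Crhr1. The listed receptors for somatostatin (5 of 5), tachykinins (3 of 3), VIP (2 of 2) and corticotropin-releasing hormone (2 of 2) were marked. So were 4 of 5 for the neuropeptide Y family and 4 of 5 for the melanocortins. Of the opioid receptors 1 of 3, Oprd1, was marked, of the cholecystokinin receptors 1 of 2, Cckbr, and of the receptors for thyrotropin-releasing hormone 0 of 2. Cckar and Mc2r were among the 7 without a peak. Within 1 kb of the starts, Trh and its receptors Trhr and Trhr2 were thus all without a peak, while Vip had none and both its receptors were marked. Over all protein-coding genes 68.0% had no peak there in either replicate, so a gene without one is common. Within 5 kb of its start Trhr2 had 731 bp covered in replicate 1 and 797 bp in replicate 2.

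Of 47 other neuropeptide precursors 24 were marked (51.1%, against 26.1% of all protein-coding genes). At 21 there was no peak within 1 kb, and 2, Prlh and Qrfp, had one in replicate 1 alone. The rates of their CpG classes would give 12.8. Ucn, Avp, Npw and Oxt had the highest ranks. Ucn, of the corticotropin-releasing hormone family, had signal values of 15.3 and 15.0, and Avp, the vasopressin gene, 12.3 and 13.6. Agrp and Cort were among those with no peak. Whether the shares of the lists differ from each other was not tested.

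**Figure D5:**
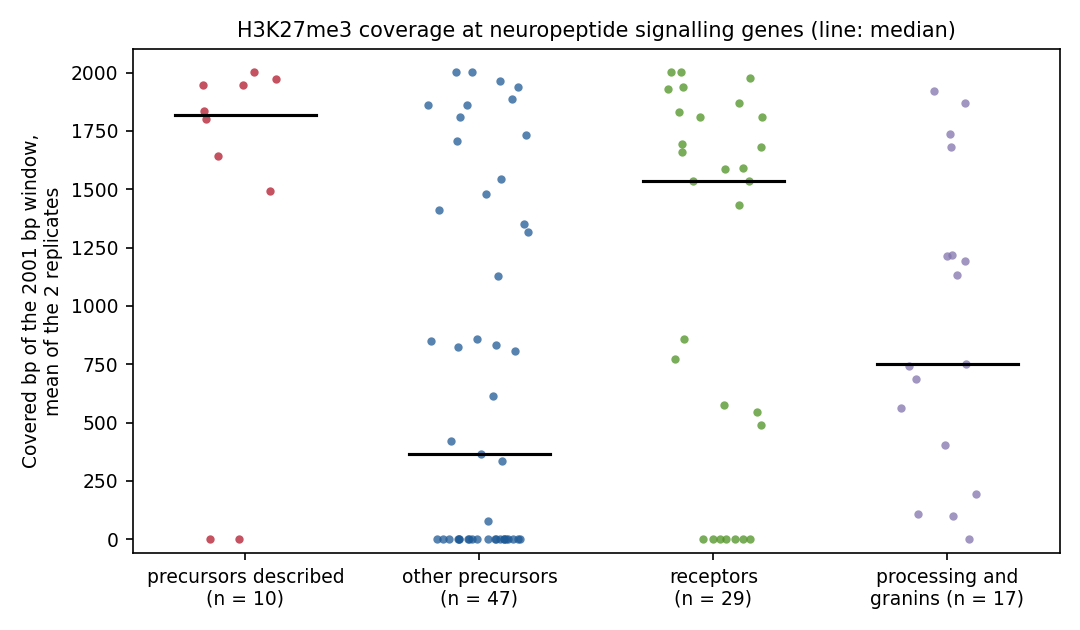
Bases of the 2001 bp window around the start covered by peaks, as the mean of the 2 replicates, for the 10 precursors described and the 3 related lists. Each point is a gene and the line is the median. Each list has genes at 0 bp, and the precursors described have the highest median.

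Facts of the libraries limit what the calls mean. Replicate 1 had 63651 peaks over 53.6 Mb and replicate 2 had 98582 peaks over 58.4 Mb, and the number of reads behind them is unknown. Whether depth bears on an absent peak was not tested. Of 7 pluripotency markers Esrrb alone was marked, while 4 of 6 fibroblast markers and 4 of 5 neuronal markers were, all but Col3a1, Acta2 and Map2. Over all protein-coding genes 26.1% were marked. The rates of their CpG classes would give 2.16 of the 7 pluripotency, 1.48 of the 6 fibroblast and 1.71 of the 5 neuronal markers. The 1 of 7 is close to that rate, so it does not identify the cell type. The peak lists hold no expression values, so the labelled cell type could be set against the mark alone.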

How the data were processed

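H3K27me3 ChIP-seq peak lists of 2 samples were used, 6 lists in all on build mm10. Per the file headers, the pseudoreplicated list of each replicate, the main source, was made by the authors from that replicate's alignments, the longer relaxed lists came from other alignments of the same libraries, and a replicated list of each run drew on both libraries. Aligner, peak caller, thresholds and control were not given in the sources used here. Each deposited peak has a signal value whose scaling is not stated, used to describe and rank peaks within a list, and a deposited −log10 p and −log10 q.

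From these, covered bases were computed in windows around the annotated 5' end of each protein-coding gene (GENCODE M21, GRCm38, autosomes and X). An overlap of 1 bp counted. CpG ratios came from the GRCm38 reference sequence over 500 bp on each side, and promoter sequences from RefSeq. Percentile ranks are the share of a list's peaks with a lower signal value. The exons are those of the basic transcript with the longest coding sequence. The calls were checked on simulated peaks. Depth is unknown, so no interval or floor was computed. No test was made: there is 1 group of 2 replicates, and the members and lists were chosen with earlier results of these data known. All 10 members were named. So were the nearest start on each side, the gene most like each marked member (not reported here for Tac1 and Penk), and of each related list up to 4 marked genes of highest mean rank and up to 2 without a peak in alphabetical order. Others were named after their values were seen. Alternatives were other windows, lists, coverage minimums, starts, joining distances, CpG windows and each replicate left out. Computation used Matplotlib 3.10.9, SciPy 1.17.1, pandas 2.3.3, NumPy 2.4.6 and Python 3.11.15.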

Additional observations from a re-analysis of the deposited data

How the results depend on the processing

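The count of marked precursors stayed at 8 of 10, with the same 8 genes, in 10 of the 11 alternatives tried, among them each replicate left out, a window of 0.5 or 2.5 kb, peaks with −log10 q from 2 upward only, and 50% of the window covered. With the relaxed lists it was 9, with Trh added. The same held for the counts within 5 kb and over the gene body, at 8 or 9 in each of 6 alternatives. Changes of window, coverage minimum or replicate could not have moved these counts, so they are no check of them. The 8 genes had the start base and over 50% of the window covered in each replicate. Vip and Trh had 0 bp covered within 10 kb and over the body in both. The use of other lists could have moved the counts. With 50% of the window covered, marked genes over all protein-coding genes numbered 3036 instead of 5679, and the processing list 7 instead of 13. Leaving out a replicate gave 6057 to 6574 marked genes over all, 24 to 26 other precursors, 22 receptors and 14 to 15 processing genes. Domain lengths moved by more than 1 SD of the values from each replicate alone in 12 of 32 cases. Those 32 include the domains from each replicate alone, which set the SD and could only be as long or longer. Vip was the lowest of the 10 genes in CpG ratio with 250 bp or 1 kb on each side, and Cck was with 500 bp. The number of reads is unknown, so a limit of detection cannot be given. No paired analysis was possible because the series has a single group.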

Other observations

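Some relatives of the precursors, chosen after their values were seen, had these bases covered in the window within 1 kb of the start. In the neuropeptide Y family, Pyy was covered over 2001 bp of the window in both replicates and Ppy, the pancreatic polypeptide gene, over 1902 and 1873 bp. All 3 genes with Npy were thus marked, as were 26.1% of all protein-coding genes. Pyy and Ppy start close together on chromosome 11, at 102107832 and 102101319, and whether their marks are separate was not tested. Pnoc, an opioid-related precursor, had 586 and 1025 bp covered, fewer than Penk or Pdyn. Among the tachykinins Tac2 had 233 and 441 bp and Tac4 57 and 781 bp, where Tac1 was covered in full. Adcyap1, the closest relative of Vip, was covered over 641 and 1010 bp and Sct, the secretin gene of the same family, over 798 and 865 bp, while Vip and the related Gcg, Gip and Ghrh had no peak there. Gast, the relative of Cck, and Cort, the relative of Sst, were without a peak in that window although Cck and Sst were marked. Of the urocortins, related to Crh, Ucn was covered over 1780 and 1938 bp and Ucn2 over 521 and 708 bp, and Ucn3 had no peak.

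The neighbours Oxt and Avp, the oxytocin and vasopressin genes, were both marked, with 1734 and 1732 bp covered at Oxt and 1780 and 1637 bp at Avp. Gal, the galanin gene, was covered over 2001 bp in both replicates. Appetite peptides, of which some were picked here after their values were seen, fell on both sides. Cartpt was covered over 1463 and 1356 bp, Hcrt over 1203 and 1054 bp and Nmu over 1044 and 1591 bp. Agrp, Pmch and Npvf had no peak within 1 kb. As not all such peptides are named, the balance of the sides cannot be read from these. Agrp had a CpG ratio of 0.908, higher than any of the 10 precursors described.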
